A study of Mus musculus with 12 samples.

Results

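The RNA of 10 transcription factors that specify and maintain the insulin-producing beta cell was followed in mouse islets before and after transplantation under the skin: Pdx1, Mafa, Nkx6-1, Nkx2-2, Neurod1, Pax6, Isl1, Foxa2, Rfx6 and Glis3. They were taken by symbol from a table of 23234 gene symbols, and all 10 were found there and passed the filter for testing. Islets labelled C57BL/6, an inbred strain, were measured either freshly isolated (4 libraries) or as grafts in inguinal subcutaneous white fat, taken on day 60 (4 libraries) or day 120 (4 libraries). All groups carry the same strain and tissue label, and the labels name no transgene, deletion or drug. That does not settle how donors or graft recipients were treated. The labels give no age, no number of islets or animals per library, and no statement that libraries of a group came from separate animals, so each p-value reflects the spread among the libraries given, part of which may be technical. Each value is an FPKM, a fragment count divided by transcript length and library size, so that levels of different genes can be set side by side.

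Beta cells are held in their mature state by a network of transcription factors that bind the insulin gene, the genes of glucose sensing and secretion, and each other. Pdx1, Nkx6-1 and Mafa are known above all from beta cells, while Neurod1, Pax6, Isl1, Nkx2-2, Foxa2 and Rfx6 also act in other endocrine cells of the islet. Loss of several of these factors from adult mouse islets is known to weaken insulin secretion and to let beta cells take on features of other cell types.

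In the grafts, Glis3 RNA was lower than in isolated islets at both times and Neurod1 RNA was lower on day 60. Rfx6 RNA was higher on day 120. The day 60 falls passed under all 23 other settings tried, whereas the day 120 fall of Glis3 missed the threshold under 5 of 23 and the rise of Rfx6 under 13 of 23. The other 7 factors did not pass the test against isolated islets at either time, although all 7 had a fitted value on day 120 above that of isolated islets, by 0.19 (Pax6, whose sign turned under 1 scaling described below) to 0.89 (Isl1) on the log2 scale. Isolated islet library 1 and day 60 graft 1 stood apart from their groups, and leaving both out was chosen after seeing the data. Without them, Pdx1, Nkx6-1, Nkx2-2 and Isl1 also passed on day 120, and Isl1 and Rfx6 on day 60. Of the 13159 genes then tested, 7437 passed on day 120 and 7623 on day 60. That islet library was the highest of its group for 7 of the 10 factors. None of the 10 differed between day 60 and day 120 after adjustment over all genes, although all 10 had a higher fitted value on day 120.

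On day 60, 0 of the 10 factors rose and 2 fell against isolated islets by limma at an adjusted p under 0.05. Over all 13433 genes tested in that comparison, 31.3% rose and 12.3% fell, 43.7% in all. At an unadjusted p under 0.05 the same 2 factors differed, and 52.5% of all genes did. The median log2 change of the 10 was -0.37, and 0.265 over all genes tested. On day 120, 1 factor rose and 1 fell, where 24.3% of all genes rose and 7.03% fell, 31.4% in all. At an unadjusted p under 0.05, 2 factors and 44.8% of all genes differed. The median of the 10 was then 0.65, against 0.302 over all genes. Between day 120 and day 60, 0 factors passed, and only 2 genes of all tested did, or 0.0149% (1 higher, Mir344g, and 1 lower, Gm9781, 0.00744% each, both named after their values were seen). The median of the 10 in that comparison was 0.78, against 0.0306 over all genes.

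**Figure D1:**
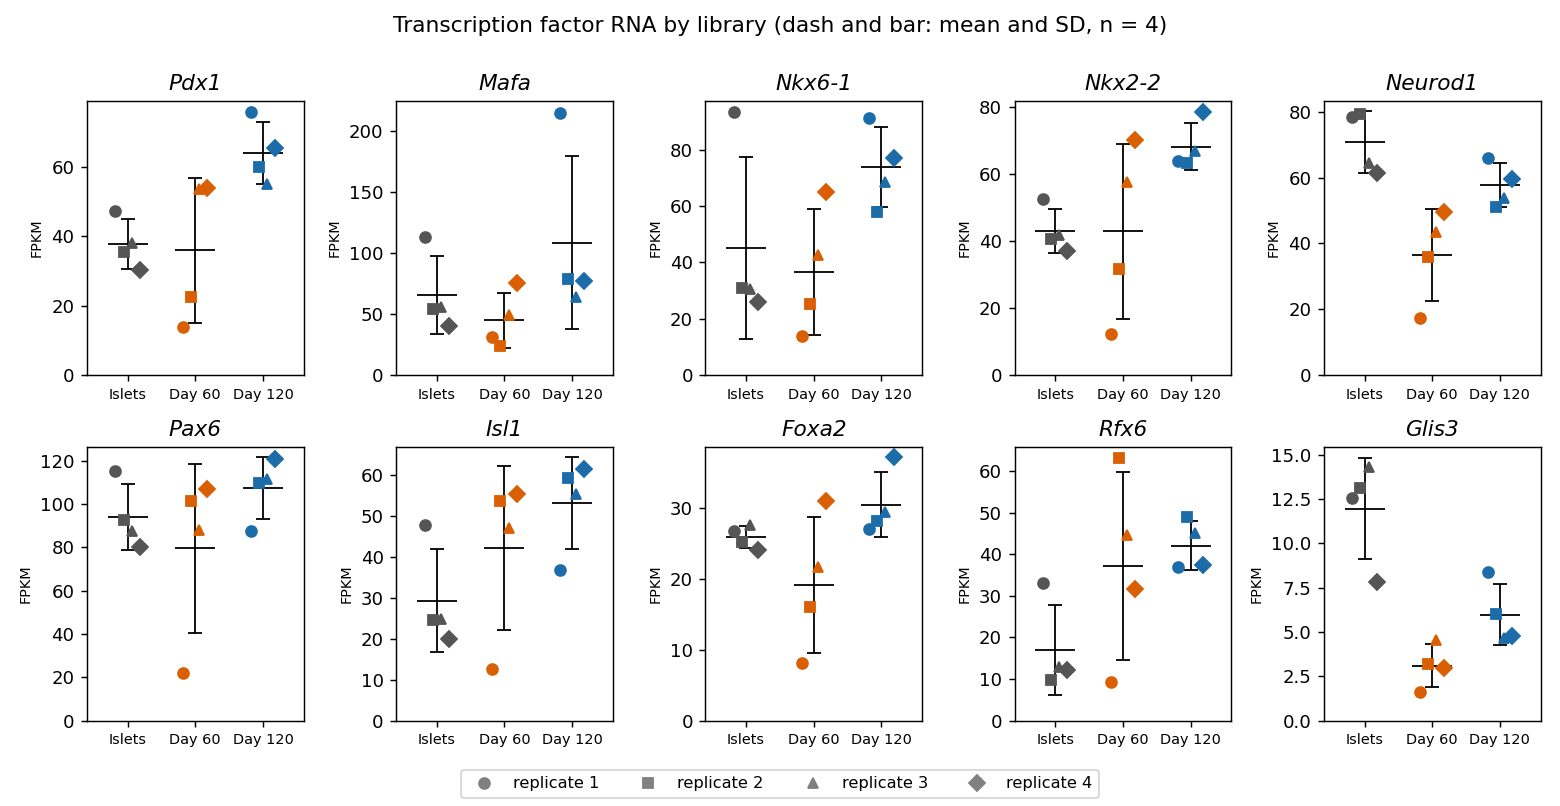
FPKM of each of the 10 factors (linear axis from 0) in isolated islets, day 60 grafts and day 120 grafts; each point is a library, its shape gives the replicate number, and the dash and bar are the mean and SD of 4 libraries. Glis3 and Neurod1 lie lower in all 4 day 60 grafts than in any isolated islet library, where 31.1% of all tested genes also did not overlap. Replicate 1 of the day 60 grafts is the lowest of all 12 libraries for 9 of the 10 factors.

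**Figure D2:**
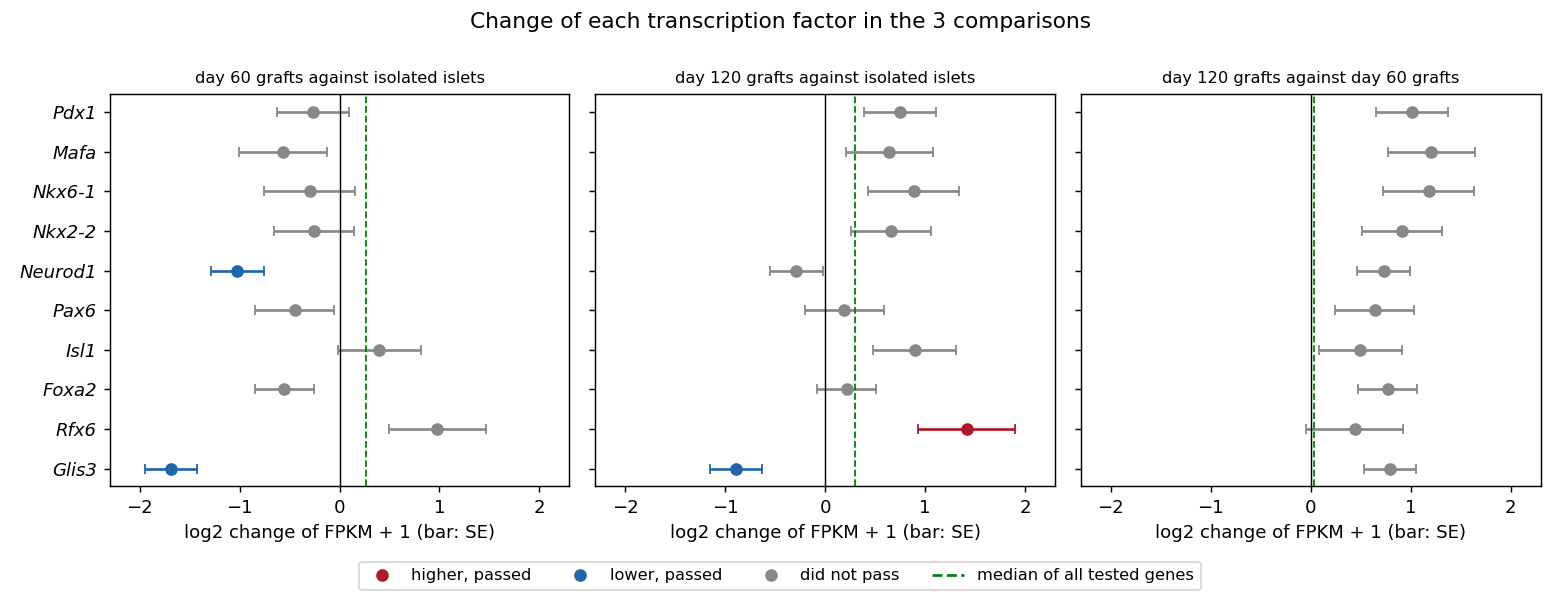
Log2 change of FPKM + 1 for each factor in the 3 comparisons, with the SE from the limma fit; blue marks a fall and red a rise that passed the test, grey did not pass, and the dashed line is the median of all 13433 tested genes. Glis3 and Neurod1 are blue on day 60, Glis3 is blue and Rfx6 red on day 120, and all 10 points lie to the right of 0 in the comparison of day 120 with day 60.

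The libraries did not hold the same mixture of cells. Summed over 15 pan-endocrine genes such as the granule proteins Chga and Chgb, FPKM came to 13080 to 15380 before transplantation, 5185 to 18020 on day 60 and 15800 to 18530 on day 120. The geometric mean of these 15 genes was 131.4 in day 60 graft 1, against 257.7 to 425.5 in the other day 60 grafts, 318.7 to 384.5 in isolated islets and 366.1 to 427.7 in day 120 grafts. Markers of the surrounding fat were high in grafts: 8 adipocyte genes summed to 64.96 to 68.48 FPKM in isolated islets, 303.3 to 10210 on day 60 and 258.7 to 1018 on day 120. The sum of 6 fibroblast genes ran from 16.95 to 22.98, from 675 to 4894 and from 262.3 to 749.1 in the same groups, and that of 7 macrophage genes from 47.34 to 70.42, from 413.4 to 3938 and from 287.9 to 484.8. Day 60 graft 1 held the highest sum of all 3 lists. Exocrine RNA went the other way, with 15 acinar genes summing to between 7226 and 83040 FPKM in isolated islets, lowest in library 1, and to 26.91 to 53.79 on day 60 and 29.15 to 40.16 on day 120. Among those acinar genes, Amy2a5, Cela3b, Cpb1 and Ptf1a were listed at 0 in every graft. Isolated islet library 1 also stood apart on the first principal component, where its score was -46.0 and the other 3 scored -91.3 to -86.1. In bulk RNA, fewer cells of a type and less RNA per cell cannot be told apart. For several factors, results that rest on isolated islet library 1 or day 60 graft 1 are given below with and without them.

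**Figure D3:**
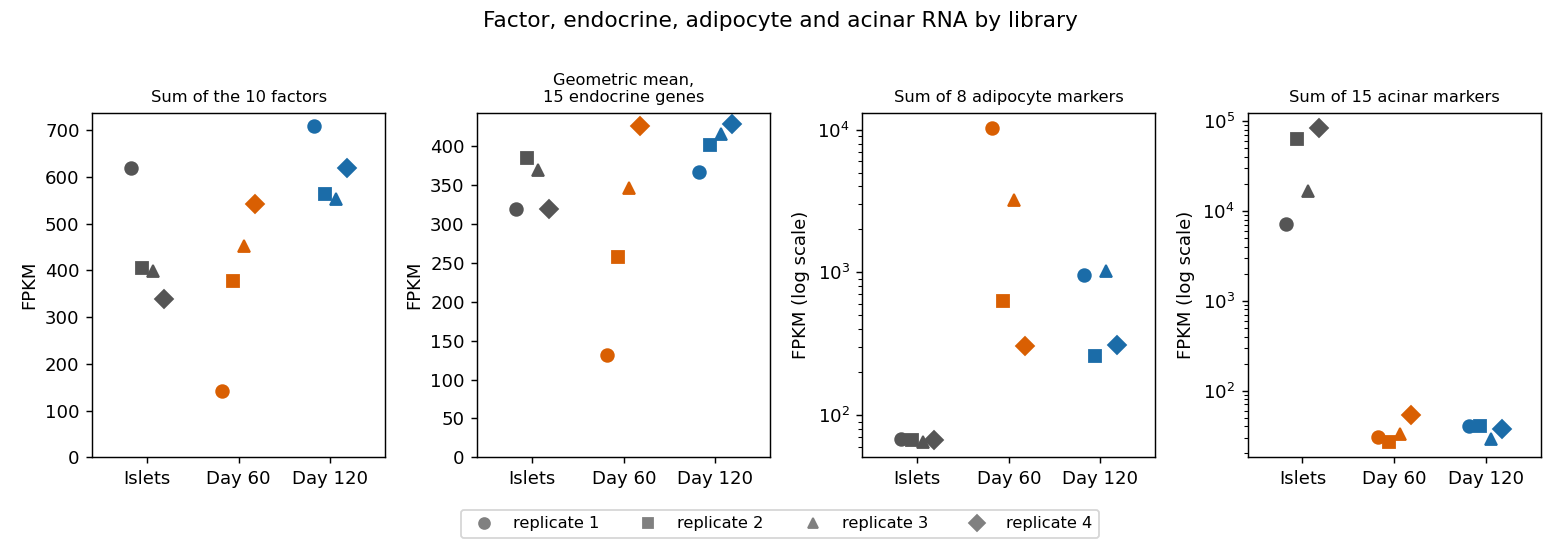
Per library, from left to right: FPKM summed over the 10 factors, the geometric mean FPKM of 15 pan-endocrine genes (both on linear axes from 0), and FPKM summed over 8 adipocyte and over 15 acinar markers (both on log axes). Day 60 graft 1 has the lowest factor sum (141.9) and endocrine mean (131.4) and the highest adipocyte sum (10210), and acinar RNA is high only in isolated islets.

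Glis3, a zinc finger factor that binds the insulin promoter and whose human counterpart is a neonatal diabetes gene, was the factor with the largest fall. Its FPKM was 12.5, 13.1, 14.3 and 7.82 in isolated islet libraries 1 to 4. In day 60 grafts 1 to 4 it was 1.59, 3.22, 4.57 and 2.99. In day 120 grafts 1 to 4 it was 8.39, 6.04, 4.69 and 4.79. Every day 60 graft lay below every isolated islet library, while day 120 graft 1 lay above isolated islet library 4. Day 60 grafts and isolated islets did not overlap for 2 of the 10 factors (Glis3 and Neurod1), and for 31.1% of all tested genes. The mean fell from 11.95 ± 2.85 FPKM (SD, n = 4) in isolated islets to 3.09 ± 1.22 on day 60, a log2 change of -1.68 ± 0.26 (SE, limma adjusted p = 0.000753). On day 120 the mean was 5.98 ± 1.72, a log2 change of -0.89 ± 0.26 (limma adjusted p = 0.0230). Relative to the median change of all genes these falls were -1.95 and -1.19. The part of duct and acinar RNA in them was not tested. The day 60 fall passed under all 23 other settings tried. The day 120 fall passed under 18 of 23, and missed the threshold without isolated islet library 2 (adjusted p = 0.0689) or 3 (0.0740) and without day 120 graft 2 (0.0502), 3 (0.0626) or 4 (0.0648).

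Neurod1, a basic helix-loop-helix factor that activates the insulin gene through E-box sequences, fell on day 60. It stood at 78.3, 79.3, 64.3 and 61.3 FPKM in isolated islet libraries 1 to 4. On day 60, grafts 1 to 4 held 17.4, 35.9, 43.5 and 49.6 FPKM. The day 120 grafts 1 to 4 held 66.1, 51.2, 53.7 and 59.7 FPKM. The day 60 values lay below all isolated islets and below all day 120 grafts, and the day 120 values overlapped those of isolated islets. The group means were 70.8 ± 9.33, 36.6 ± 14.0 and 57.7 ± 6.65 FPKM (SD, n = 4). The day 60 change was -1.02 ± 0.27 (log2, SE, limma adjusted p = 0.00931) and passed under all 23 other settings. It was -0.66 (adjusted p = 0.00503) without isolated islet library 1 and day 60 graft 1, both left out after the data had been seen. On day 120 the change was -0.29 ± 0.27 (adjusted p = 0.413). The difference between the times was itself not called, at 0.73 ± 0.27 (adjusted p = 0.490).

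Rfx6, a winged-helix factor that acts after Neurog3 in endocrine development and is kept on in adult beta cells, was the factor with the largest rise. Isolated islet libraries 1 to 4 had 33.0, 9.69, 12.8 and 12.1 FPKM. Day 60 grafts 1 to 4 had 9.36, 63.0, 44.6 and 31.6 FPKM. The day 120 grafts 1 to 4 had 36.8, 48.9, 45.0 and 37.4 FPKM. All day 120 grafts exceeded all isolated islets, of which library 1 was far above the other 3, and day 60 graft 1 was below all other libraries. The means were 16.9 ± 10.8, 37.1 ± 22.6 and 42.0 ± 5.90 FPKM (SD, n = 4). The log2 change was 1.42 ± 0.49 on day 120 (SE, limma adjusted p = 0.0427) and 0.98 ± 0.49 on day 60 (adjusted p = 0.118). Relative to the median change of all genes, the day 120 rise was 1.11. This call rested on the settings: it was lost under 13 of 23 others at a log2 change between 1.20 and 1.48, with adjusted p = 0.129 after scaling to the 15 pan-endocrine genes and 0.0679 with replicate number as a block. It was also lost when any of isolated islet libraries 2 to 4 (adjusted p = 0.102 to 0.121), day 60 graft 3 (0.0504) or any 1 of the day 120 grafts (0.0665 to 0.0929) was left out. Without isolated islet library 1 and day 60 graft 1, Rfx6 was higher at both times, by 1.87 on day 60 (adjusted p = 2.403e-05) and by 1.78 on day 120 (adjusted p = 2.035e-05). Leaving out either library alone also made the day 60 difference pass (1.34, adjusted p = 0.0342, without the islet library and 1.51, 0.0044, without the graft). After the endocrine scaling of all 12 libraries the day 60 difference was 1.33 (adjusted p = 0.0349).

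The promoters of the 3 factors that passed a test, and of Pdx1 and Nkx2-2, the pair of factors with the most similar profiles over the libraries, are shown to place the E-box, the 6-base sequence CANNTG that basic helix-loop-helix factors such as Neurod1 bind. Each is the 250 bases before the start site in RefSeq on build GRCm38.p6, 5′ to 3′ on the gene's strand, with every E-box in capitals. RefSeq promoters were matched for 9 of the 10 factors, 12 start sites in all. The letters of CANNTG read the same on both strands, and overlapping matches were counted.
Glis3, chr19:28680078-28680327, minus strand: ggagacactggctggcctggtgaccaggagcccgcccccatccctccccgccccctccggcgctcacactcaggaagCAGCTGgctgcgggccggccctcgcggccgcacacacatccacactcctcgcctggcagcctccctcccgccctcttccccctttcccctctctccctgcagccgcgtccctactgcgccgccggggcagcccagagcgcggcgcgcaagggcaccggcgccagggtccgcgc
Neurod1, chr2:79456637-79456886, minus strand: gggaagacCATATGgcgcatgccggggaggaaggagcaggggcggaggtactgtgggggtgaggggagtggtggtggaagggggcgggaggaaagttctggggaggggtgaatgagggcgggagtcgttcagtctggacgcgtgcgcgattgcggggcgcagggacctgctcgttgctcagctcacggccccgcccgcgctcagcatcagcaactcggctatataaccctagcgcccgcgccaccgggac
Rfx6, chr10:51685268-51685517, plus strand: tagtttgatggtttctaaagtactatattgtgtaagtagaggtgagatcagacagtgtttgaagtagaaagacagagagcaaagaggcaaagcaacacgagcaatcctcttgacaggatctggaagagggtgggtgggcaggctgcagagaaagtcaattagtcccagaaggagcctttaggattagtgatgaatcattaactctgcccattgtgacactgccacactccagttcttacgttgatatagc
Pdx1, chr5:147269847-147270096, plus strand: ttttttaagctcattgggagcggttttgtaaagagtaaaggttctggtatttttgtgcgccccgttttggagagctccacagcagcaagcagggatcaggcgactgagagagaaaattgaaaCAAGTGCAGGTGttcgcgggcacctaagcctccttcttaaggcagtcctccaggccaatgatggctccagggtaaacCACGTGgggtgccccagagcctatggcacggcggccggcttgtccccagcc
Nkx2-2, chr2:147186403-147186652, minus strand: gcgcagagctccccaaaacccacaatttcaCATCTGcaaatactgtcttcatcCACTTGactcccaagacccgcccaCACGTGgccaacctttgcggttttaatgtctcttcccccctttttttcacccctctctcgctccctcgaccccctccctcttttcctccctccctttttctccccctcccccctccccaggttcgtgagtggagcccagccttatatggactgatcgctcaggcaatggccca
The window held 1 E-box before Glis3, 1 before Neurod1, 0 before Rfx6, 3 before Pdx1 and 3 before Nkx2-2. Over all 32851 promoter windows of this length, 66.2% held at least 1 and 12.2% held 3 or more, and 7 of the 12 windows of the factors held at least 1. Among the factors, the G and C content of the windows shown ran from 44.0% before Rfx6 to 75.6% before Glis3. A match of letters describes the sequence and shows no binding.

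Pdx1, a homeodomain factor needed to form the pancreas and later an activator of insulin and of glucose transport in beta cells, did not pass in any comparison. Its FPKM was 47.4, 35.5, 38.1 and 30.2 in isolated islet libraries 1 to 4. On day 60, grafts 1 to 4 had 13.7, 22.3, 53.6 and 53.9, and the day 120 grafts 75.7, 60.0, 54.9 and 65.2. The 4 day 120 grafts lay above all isolated islets and all day 60 grafts, which ran from 13.7 to 53.9. The means were 37.8 ± 7.18, 35.9 ± 20.9 and 64.0 ± 8.92 FPKM (SD, n = 4). The fitted log2 change from isolated islets was -0.27 ± 0.36 on day 60 (SE, limma adjusted p = 0.570) and 0.75 ± 0.36 on day 120 (adjusted p = 0.123). Without isolated islet library 1 and day 60 graft 1 the day 120 difference was 0.86 and passed (adjusted p = 0.0141). Day 120 without overlap of isolated islets was seen for 3 of the 10 factors (Pdx1, Nkx2-2 and Rfx6), and for 35.5% of all tested genes.

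Nkx2-2, a homeodomain factor of endocrine specification that holds back other islet fates in beta cells, followed a course close to that of Pdx1. The isolated islet libraries 1 to 4 held 52.4, 40.6, 41.8 and 37.0 FPKM. The day 60 grafts held 12.1, 31.7, 57.4 and 70.0, and the day 120 grafts 63.7, 63.3, 66.7 and 78.3. All day 120 grafts exceeded all isolated islets, and the day 60 grafts lay on both sides of them. The log2 change was -0.26 ± 0.40 on day 60 (SE, limma adjusted p = 0.628) and 0.66 ± 0.40 on day 120 (adjusted p = 0.219). Without the same pair of libraries the day 120 difference was 0.75 and passed (adjusted p = 0.0101).

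Nkx6-1, a homeodomain factor required for beta cell maturation and for keeping alpha cell genes off, was 93.2 FPKM in isolated islet library 1 and 30.9, 30.4 and 25.8 in the other 3. The day 60 grafts 1 to 4 held 13.7, 25.3, 42.5 and 65.1 FPKM. The day 120 grafts held 91.4, 57.8, 68.4 and 77.2 FPKM. The 4 day 120 grafts lay above isolated islet libraries 2 to 4 and below library 1. The log2 change was -0.30 ± 0.46 on day 60 (SE, limma adjusted p = 0.622) and 0.89 ± 0.46 on day 120 (adjusted p = 0.149). Leaving out isolated islet library 1 alone gave 1.30 on day 120 and a pass (adjusted p = 0.0240).

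Mafa, a leucine zipper factor that comes on late in beta cell maturation and activates insulin and secretion genes, was the most variable factor on day 120. Its FPKM was 112.9, 54.3, 55.8 and 39.8 in isolated islet libraries 1 to 4. It was 31.1, 24.0, 48.9 and 75.1 in day 60 grafts, and 214.9, 79.0, 63.8 and 76.8 in day 120 grafts. In each of the isolated islets and day 120 grafts library 1 was the highest, and all 3 groups overlapped. The means were 65.7 ± 32.3, 44.8 ± 22.7 and 108.6 ± 71.2 FPKM (SD, n = 4). Neither the day 60 change, -0.57 ± 0.44 (log2, SE, limma adjusted p = 0.313), nor the day 120 change, 0.64 ± 0.44 (adjusted p = 0.269), passed, and neither did under any of the 23 other settings.

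Isl1, a LIM homeodomain factor of all islet endocrine cells, was 47.9 FPKM in isolated islet library 1 and 24.7, 24.8 and 19.9 in libraries 2 to 4. The day 60 grafts 1 to 4 held 12.7, 53.6, 47.2 and 55.5 FPKM. The day 120 grafts held 36.9, 59.3, 55.4 and 61.5 FPKM. The grafts other than day 60 graft 1 lay above isolated islet libraries 2 to 4, and day 60 graft 3 and day 120 graft 1 lay below library 1. The log2 change was 0.40 ± 0.42 on day 60 (SE, limma adjusted p = 0.454) and 0.89 ± 0.42 on day 120 (adjusted p = 0.113). Without isolated islet library 1 and day 60 graft 1 the differences were 1.14 (adjusted p = 0.000283) and 1.15 (adjusted p = 0.000162), and both passed. Without day 60 graft 1 alone both passed as well (0.89 at each time, adjusted p = 0.0150 and 0.0104), and without isolated islet library 1 alone the day 120 difference did (1.15, adjusted p = 0.0492).

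Pax6, a paired and homeodomain factor shared by all islet endocrine cells, kept the highest level of the 10 in 10 of 12 libraries, with Mafa highest in the other 2. It was 115.4, 92.5, 87.8 and 80.4 FPKM in isolated islet libraries 1 to 4. It was 22.1, 101.4, 87.9 and 106.9 in day 60 grafts, and 87.6, 109.6, 111.6 and 121.0 in day 120 grafts. Day 60 graft 1 stood below the other 11 libraries, and these 11 lay between 80.4 and 121.0 FPKM. The log2 change was -0.45 ± 0.39 on day 60 (SE, limma adjusted p = 0.375) and 0.19 ± 0.39 on day 120 (adjusted p = 0.726). Without day 60 graft 1 the day 60 change was 0.08, and neither difference passed under any of the 23 other settings.

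Foxa2, a forkhead factor that opens chromatin at endocrine genes and acts upstream of Pdx1, varied least among the isolated islets, at 26.8, 25.2, 27.6 and 24.1 FPKM. The day 60 grafts 1 to 4 held 8.10, 16.1, 21.6 and 30.9, and the day 120 grafts 27.0, 28.1, 29.5 and 37.2. The groups overlapped, with 3 of 4 day 60 grafts below all isolated islets. The log2 change was -0.55 ± 0.30 on day 60 (SE, limma adjusted p = 0.144) and 0.22 ± 0.30 on day 120 (adjusted p = 0.588). Only leaving out day 60 graft 4, of the 23 other settings, made the day 60 difference pass (-0.82, adjusted p = 0.0246). Leaving out day 60 graft 1 instead brought it to -0.22.

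Between day 60 and day 120 all 10 factors had a higher fitted value on day 120, by 0.44 (Rfx6) to 1.21 (Mafa) on the log2 scale, and 0 passed (adjusted p = 0.490 to 0.722). At an unadjusted p under 0.05, 7 of the 10 differed, and 10.1% of all tested genes did. The 2 times did not overlap for 3 factors, Pdx1, Neurod1 and Glis3, and for 4.29% of all tested genes. Same-numbered grafts of the 2 times varied together, although the labels give only a number and no pairing. Within those 4 pairs, 9 factors were higher on day 120 in 4 of 4 and Rfx6 in 3 of 4. The share of all genes higher in 4 of 4 was not computed. Day 60 graft 1 was the lowest of all 12 libraries for 9 of the 10 factors, so the first pair reflects that library as a whole. With the replicate number as a block in the grafts alone the adjusted p ran from 0.361 to 0.546, again with 0 passing. The pan-endocrine genes moved the same way, with 15 of 15 above 0 and a median of 0.57. When each library was scaled to these 15 genes, the factors ran from -0.13 to 0.63, with 8 above 0 and Isl1 and Rfx6 below, and that scaling moved the median of all genes from 0.0306 to -0.48. Without day 60 graft 1 and isolated islet library 1, 9 of 10 stayed above 0, the exception being Rfx6 at -0.10.

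The coefficient of variation of FPKM had a median over the 10 of 50.4% on day 60, 21.4% in isolated islets and 14.6% on day 120. The highest values in isolated islets and on day 120, 71.4% (Nkx6-1) and 65.5% (Mafa), came from groups with a single high library. Summed over the 10 factors, FPKM was 141.9, 376.5, 451.8 and 541.6 in day 60 grafts 1 to 4, the same order as their pan-endocrine mean.

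The order of the factors by mean level was Pax6, Neurod1, Mafa, Nkx6-1, Nkx2-2, Pdx1, Isl1, Foxa2, Rfx6 and Glis3 in isolated islets, where only Pax6 and Neurod1 were further apart than the larger of their SDs. On day 60 it was Pax6, Mafa, Nkx2-2, Isl1, Rfx6, Nkx6-1, Neurod1, Pdx1, Foxa2 and Glis3, and only Foxa2 and Glis3 were apart in this sense. On day 120 it was Mafa, Pax6, Nkx6-1, Nkx2-2, Pdx1, Neurod1, Isl1, Rfx6, Foxa2 and Glis3. There, Pax6 stood apart from Nkx6-1, Isl1 from Rfx6, Rfx6 from Foxa2 and Foxa2 from Glis3. Neurod1 was thus the second by mean in isolated islets, the seventh on day 60 and the sixth on day 120, whereas Rfx6 was the ninth, the fifth and the eighth. The SD measures spread between libraries, whereas neighbours were read in the same libraries, so being within it does not unsettle an order. Within their SD, the order still held in 4 of 4 libraries for Mafa above Nkx6-1 and Nkx2-2 above Pdx1 in isolated islets. It also held for Pdx1 above Foxa2 on day 60 and Pdx1 above Neurod1 on day 120. Pax6 above Nkx6-1 on day 120, apart by SD, held in 3 of 4.

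**Figure D4:**
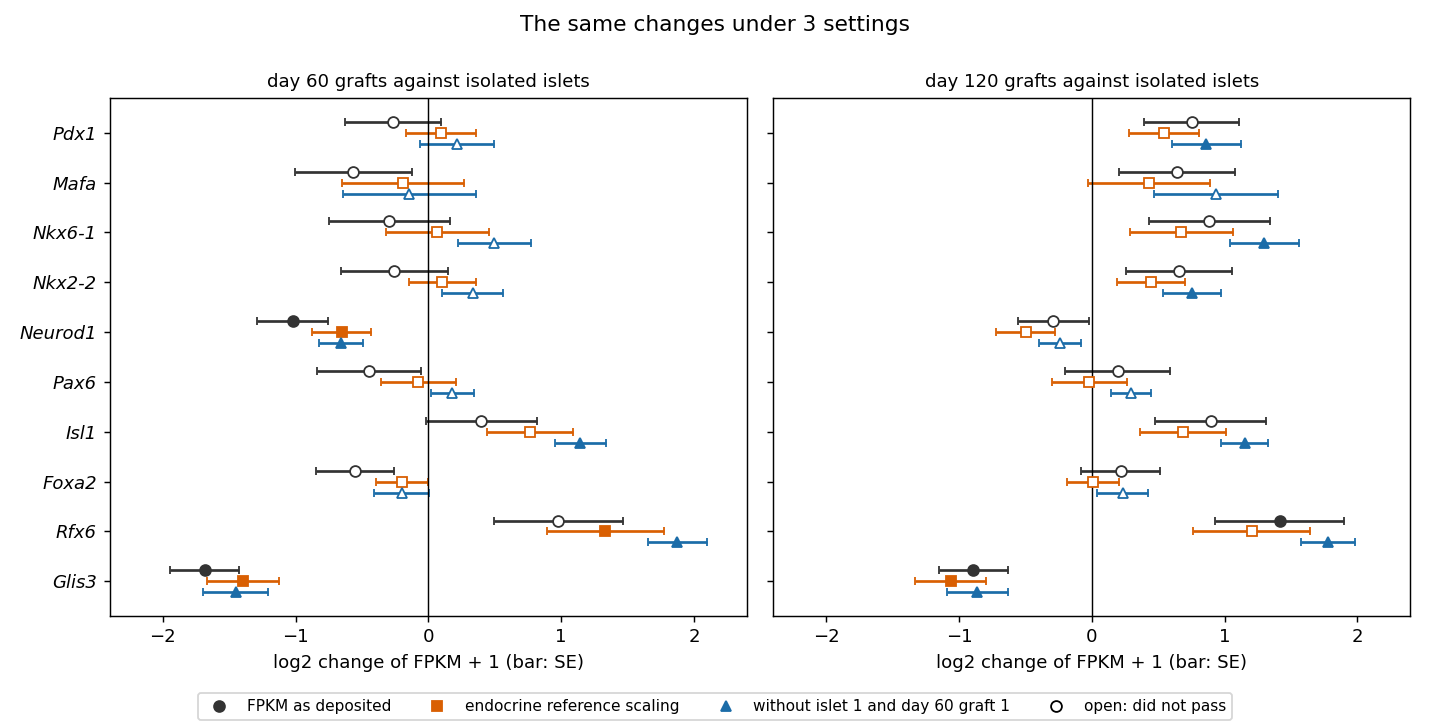
Log2 change of FPKM + 1 of each factor against isolated islets on day 60 (left) and day 120 (right), with the SE, for the deposited FPKM (circles), after scaling to 15 pan-endocrine genes (squares) and without isolated islet library 1 and day 60 graft 1 (triangles); filled symbols passed the test. Neurod1 and Glis3 are filled in all 3 on day 60 and Glis3 in all 3 on day 120, while Rfx6 and Isl1 on day 60 depend on the setting.

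The sign of the smaller day 60 differences depended on scaling and on day 60 graft 1. As deposited, and after upper-quartile or quantile scaling, 8 of the 10 factors had a log2 change below 0 on day 60. After endocrine scaling 5 did, because Pdx1 (0.10), Nkx6-1 (0.07) and Nkx2-2 (0.10) moved above 0, and the median of all genes moved from 0.27 to 0.59. Without day 60 graft 1 alone, 4 were below 0 and 6 above. Weighting the libraries gave 5 and 5, and leaving out isolated islet library 1 gave 7 below and 3 above. On day 120, 8 were above 0 as deposited and 7 after endocrine scaling, where Pax6 was at -0.02 and the median of all genes at 0.12. The directions of Glis3, Neurod1, Rfx6, Isl1, Mafa and Foxa2 against isolated islets stayed the same under every scaling tried, although Foxa2 on day 120 was as low as 0.011.

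Of 25 other transcription factors of endocrine and pancreatic cells, 21 were tested. On day 60, 0 rose and 6 fell, with a median log2 change of -0.25, where 31.3% of all tested genes rose, 12.3% fell and their median was 0.265. The 6 included Prox1, a homeobox factor of early pancreas, from 9.37 ± 1.44 to 2.1 ± 0.87 FPKM (SD, n = 4; log2 -1.78, limma adjusted p = 0.000314). They also included Insm1, a zinc finger factor of endocrine differentiation (log2 -1.28, limma adjusted p = 0.0145). Sox9 and Gata6, which mark duct and exocrine cells as well as progenitors, fell by 1.43 and 0.95 on the log2 scale on day 60 (limma adjusted p = 0.00299 and 0.00723). Sox9 was 1.07 to 5.96 FPKM in isolated islets, 0.126 to 0.305 on day 60 and 0.05 to 0.37 on day 120. It passed the filter only through the isolated islets, so its fall was fixed by the filter and is no evidence. Of 7 duct markers tested, 4 were lower at each time, Sox9 with that limit among them. The duct sum was 266.6 to 544 FPKM in isolated islets (highest in library 1), 101.4 to 206.1 on day 60 and 172.8 to 203.3 on day 120. The part of duct and acinar RNA in the falls of Sox9, Gata6 and Prox1 was not tested.

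On day 120, 4 of the 21 rose and 3 fell, with a median of -0.11, where 24.3% of all tested genes rose, 7.03% fell and their median was 0.302. The falls were again Sox9 (-1.57), Gata6 (-1.07) and Prox1 (-1.20), each with a limma adjusted p at or under 0.00784. That of Sox9 was again fixed by the filter. The rises were Neurog3, the factor that starts endocrine development, from 1.60 ± 0.23 to 4.95 ± 2.06 FPKM (SD, n = 4; log2 1.14, adjusted p = 0.0244), and Hnf4g (log2 0.77, adjusted p = 0.0327). Etv1 (0.93, adjusted p = 0.0370) and Esrrg (0.81, adjusted p = 0.0384) also rose and were named after their values were seen. All 4 rises lost their call under quantile (adjusted p = 0.0961 to 0.235) or endocrine scaling (0.05996 to 0.187) and without isolated islet library 2 (0.0555 to 0.108), 3 (0.0596 to 0.0935) or 4 (0.0623 to 0.116). Neurog3 also lost it without day 120 graft 2 (0.0568) or 4 (0.0751), and the other 3 without any 1 of the day 120 grafts (0.0524 to 0.0949). In all, the call was lost under 7 of 22 other settings for Neurog3 and 10 of 22 for Hnf4g. For Etv1 it was lost under 12 of 23 and for Esrrg under 12 of 22. Gata6 lost its call at both times under endocrine scaling (adjusted p = 0.181 and 0.0808). Mnx1, a beta cell factor, was 8.27 ± 1.97 FPKM in isolated islets, 5.42 ± 2.66 on day 60 and 9.04 ± 1.01 on day 120 (SD, n = 4) and passed in no comparison as deposited. Its day 60 difference of -0.60 (limma adjusted p = 0.0883) passed under 6 of 23 other settings. These were upper-quartile scaling (adjusted p = 0.0423), quantile scaling (0.0321), library weights (0.0345), leaving out day 60 graft 4 (0.0227) or isolated islet library 1 (0.0385), and endocrine scaling without that islet library and day 60 graft 1 (0.0424).

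Of 22 textbook targets of these factors, 21 were tested. Day 60 grafts had 1 higher and 2 lower, with a median of -0.22, and day 120 grafts had 3 higher and 0 lower, with a median of 0.47. Called in either direction were 43.7% of all tested genes on day 60 and 31.4% on day 120, with medians of 0.265 and 0.302. Iapp, the peptide hormone stored with insulin, was 26174, 20053, 17342 and 16932 FPKM in isolated islets 1 to 4, and 29125 to 48065 in all 8 grafts, with no overlap. Its log2 change was 0.99 ± 0.27 on day 60 (SE, limma adjusted p = 0.0107) and 1.03 ± 0.27 on day 120 (adjusted p = 0.0146). The day 120 call was lost after quantile (adjusted p = 0.175) or endocrine scaling (0.330) and without isolated islet library 3 (0.0545) or 4 (0.0597). G6pc2, the islet glucose-6-phosphatase subunit, was 1133 FPKM in isolated islet library 1, 156.3 to 265.4 in the other 3 and 1073 to 1295 on day 120, a log2 rise of 1.93 ± 0.56 (adjusted p = 0.0227). Glp1r, the receptor of the incretin GLP-1, rose from 41.8 ± 23.7 to 82.4 ± 19.9 FPKM on day 120 (SD, n = 4; log2 1.08, adjusted p = 0.0434). G6pc2 and Glp1r lost their calls under endocrine scaling (adjusted p = 0.0961 and 0.195) and without any 1 of isolated islet libraries 2 to 4 (0.0644 to 0.0778 and 0.0879 to 0.135). G6pc2 also lost it without day 120 graft 2 (0.0512) or 4 (0.0543), and Glp1r without day 60 graft 4 (0.0507) or any 1 of the day 120 grafts (0.0604 to 0.105). In all, G6pc2 lost its call under 6 of 23 other settings and Glp1r under 13 of 23. Of the calcium channel genes among the targets, Cacna1c and Cacnb2 fell on day 60, by 1.38 and 1.15 on the log2 scale (adjusted p = 0.00579 and 0.0122). The other calcium channel genes did not pass at that time.

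Slc2a2, the glucose transporter of mouse beta cells and a known target of Pdx1, was 173.5, 61.1, 51.2 and 41.4 FPKM in isolated islets, 30.03, 104.8, 53.8 and 73.9 on day 60, and 136.3, 108.8, 92.8 and 116.4 on day 120. Ucn3, a peptide of mature beta cells, was 360.8, 120.7, 95.4 and 93.9 in isolated islets, 76.7, 84.9, 147.1 and 204.7 on day 60, and 286.3, 157.5, 206.0 and 268.4 on day 120. Neither passed in any comparison as deposited (limma adjusted p = 0.221 for Slc2a2 and 0.244 for Ucn3 on day 120), and isolated islet library 1 was the highest of all 12 for both. Without that library both were higher on day 120 (1.14 and 1.11 on the log2 scale, adjusted p = 0.0210 for each), and both also passed then under 3 more of the 23 other settings. Ins1 was listed at 0 in day 60 graft 4 and lay between 29232 and 92935 FPKM in the other 11 libraries. For Ins2 the table gives 0 in 10 of the 12 libraries, with 293150 and 316265 FPKM in isolated islet libraries 3 and 4. Such values of 0 in islet tissue can be failed estimates, so no fold is given for the insulin genes, the main targets of the 10 factors.

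**Figure D5:**
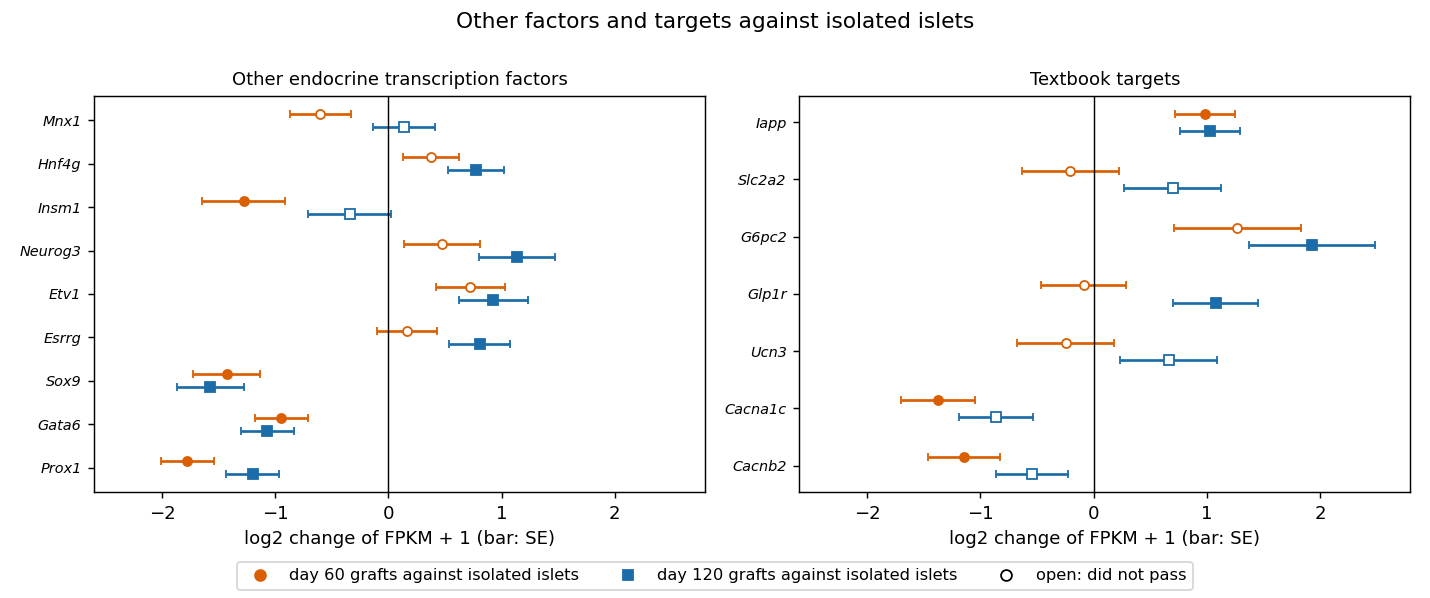
Log2 change of FPKM + 1 against isolated islets, with the SE, for the 9 other endocrine transcription factors (left) and 7 textbook targets (right) that the text gives values for, the insulin genes left out, on day 60 (orange circles) and day 120 (blue squares); filled symbols passed the test. Prox1, Sox9 and Gata6 are filled and below 0 at both times, and Iapp is filled and above 0 at both times. Sox9 passed the filter only through the isolated islets.

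The genes whose profiles over the 12 libraries were most like each factor were found by the root mean square difference of log2(FPKM + 1), each profile centred on its own mean, a smaller value meaning a closer match. These profiles share the cell mixture of each library and carry no test. Foxa2 had the closest match of any factor, the prohormone convertase Pcsk2 (0.0792), followed by Cdh2, a cadherin (0.0973). Neurod1 was closest to Nol4 (0.0961) and Fkbp1b (0.154), and Pax6 to Llgl2 (0.112) and Rapgef4 (0.121). Isl1 was closest to Tmc4 and Rgl3 (both 0.122). Nkx6-1 was closest to Vdr, the vitamin D receptor (0.189), and Ucn3 (0.236), and Mafa to Slc7a8 (0.406) and Ucn3 (0.413). Nkx2-2 was closest to March9 (0.158) and Scnn1b (0.172), and Pdx1 to Reep6 (0.189) and Nipal3 (0.207). Rfx6 was closest to Tat (0.201) and Kcnh6, a potassium channel (0.251), and Glis3 to Prox1 (0.181) and Mia2 (0.212). Among the 10 themselves, Pdx1 and Nkx2-2 were the most alike (0.198), and Rfx6 and Glis3 the least (1.32). For the median tested gene the difference from a factor was between 0.642 (Foxa2) and 0.926 (Glis3).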

How the data were processed

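RNA was sequenced from 12 libraries in 3 groups of 4, grouped by title. The authors deposited FPKM values, 1 per symbol and library, made with TopHat2 and Cufflinks 2.1.1 on mouse build mm9, per the submitters' processing notes; the gene annotation and options are not given in the sources used here. Low-input cDNA and 15 cycles of PCR were used, per the labels' protocols. Read depth is unknown; deposited FPKM summed to 396769 to 786366 per library.

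Genes with at least 1 FPKM in at least 4 libraries were tested (13433 of 23234) on log2(FPKM + 1), which understates changes of low genes. Limma 3.58.1 (R 4.3.3, statmod 1.5.0) was fitted on all 12 libraries, with a variance trend, robust variances, group as the only term, two-sided tests and Benjamini-Hochberg adjustment over all tested genes, at a threshold of 0.05. The fit was run on simulated data with independent noise for each gene and no shift shared by a library. It therefore gives no check against differences in cell mixture between libraries.

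The members and lists were chosen with earlier results of these data known. Named were all 10 factors, Mnx1, Iapp, Slc2a2, Ucn3, Glp1r and Ins1, up to 5 further called genes of each list per comparison by smallest p, and the 2 genes most like each factor. Etv1 and Esrrg were added, and some genes that this rule names are not reported here.

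Same-numbered day 60 and day 120 grafts deviated together from their group means (correlations over genes 0.402, 0.442, 0.180 and 0.230); isolated islets did not pair with grafts. Alternatives varied the pseudocount, filter, scaling, variance model, library weights, replicate block and libraries. Promoter sequences are RefSeq's, on GRCm38.p6, and were not joined to mm9 coordinates.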

Additional observations from a re-analysis of the deposited data

Results flagged for a closer look

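Each of the 10 factors was checked in each of the 3 groups of 4 libraries, 30 checks in all, for a library whose gap to its nearest neighbour, as a share of the group's range, was above Dixon's critical value for 4 values. Chance flags about 1 in 20 such groups. In 3 cases a single library stood far above the other 3. Mafa was 214.9 FPKM in day 120 graft 1, where the next was 78.96 (gap 0.900 of the range). Nkx6-1 was 93.21 FPKM in isolated islet library 1, where the next was 30.93 (0.923). Rfx6 was 32.95 FPKM in isolated islet library 1, where the next was 12.8 (0.866). That islet library also had the lowest acinar sum of its group, 7226 FPKM, and the highest duct sum, 544 FPKM.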

How the results depend on the processing

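Over the 10 factors and 3 comparisons, 650 of 700 alternative values kept the direction and the side of the threshold, 18 lost and 30 gained a call, 2 turned direction with a call, and 25 of those counted as kept changed sign without being called. The factors called on day 60 (2) became 4 with library weights, 4 without isolated islet library 1 and day 60 graft 1, 6 when that was combined with endocrine scaling, and 2 to 4 with 1 library left out. On day 120 (2) they became 1 with no filter, upper-quartile, quantile or endocrine scaling or the replicate block, 7 with library weights, 6 without those 2 libraries, 7 when that was combined with endocrine scaling, and 0 to 5 with 1 library left out. With the replicate block the day 60 count stayed at 2 and the block ended only the day 120 call of Rfx6 (adjusted p = 0.0679) among the factors; islets and grafts share only a number. Between the times 0 factors were called under every setting. The direction turned, with a call, for Nkx6-1 (0.58) and Nkx2-2 (0.42) on day 60 under endocrine scaling without those 2 libraries, and for Glp1r on day 60 with library weights (0.67) and without the 2 libraries (0.56); the cause was not tested. Over all genes, day 60 calls (5865) became 9356 with library weights, 7623 without those 2 libraries and 7139 when that was combined with endocrine scaling. Day 120 calls (4212) became 511 under endocrine scaling, 8853 with library weights, 7437 without those 2 libraries and 1839 to 6004 with 1 library left out. They became 6030 without those 2 libraries under endocrine scaling. Calls between the times (2) became 4 with no filter, 1 at a minimum of 5 FPKM, 459 with library weights, 1 without those 2 libraries, 1 when that was combined with endocrine scaling and 1 to 20 with 1 library left out. The share of higher calls was 71.8% on day 60 as deposited, 60.6% after upper-quartile, 45.2% after quantile and 88.8% after endocrine scaling, and on day 120 77.6%, 63.8%, 45.6% and 38.9%. Leaving out those 2 libraries, alone or with endocrine scaling, was chosen after seeing the data. Depth is unknown, so no counting error is given. With 1 library left out the other groups' changed p-values come from the shared spread. Without day 60 graft 1, the day 120 differences of Pdx1, Nkx2-2 and Isl1 from isolated islets kept their log2 values and passed (adjusted p = 0.0272, 0.0239 and 0.0104).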
